A study of Mus musculus with 15 samples.

Results

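Cytochrome P450 enzymes of families 1 to 4 were followed in mouse colon adenoma and normal colon epithelium. The genes were chosen by name: every non-control probe of the array whose gene name starts with Cyp1, Cyp2, Cyp3 or Cyp4 followed by a letter. This gave 81 probes for 54 genes, out of 41174 non-control probes and 27735 genes on the array. Family 1 had 3 genes, family 2 had 34, family 3 had 6 and family 4 had 11. Of the 54 genes, 30 had 1 probe and 24 had several.

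Cells were taken by laser microdissection, which cuts chosen cells out of a tissue section, and 10 ng of RNA was carried through 2 rounds of linear amplification before single-colour hybridisation to Agilent whole mouse genome arrays. The mice carry a mutant allele of the tumor suppressor Apc (Apc+/Min-FCCC, male, C57BL/6J background) and were sorted by colonoscopy at 6 to 8 weeks of age; drugs were given in chow for 7 days. The first group was adenoma from mice given sulindac, an inhibitor of cyclooxygenases, at 300 ppm together with atorvastatin, an inhibitor of cholesterol synthesis, at 100 ppm (4 arrays). The second was adenoma from mice on plain chow (3 arrays). The third was normal epithelium of tumor-bearing mice given atorvastatin at 100 ppm (4 arrays), and the fourth was normal epithelium of tumor-free mice given the same dose (4 arrays). According to the protocols, mice with tumors received either plain chow or both drugs, whereas the labels of the third group name atorvastatin alone and give no strain, sex or age; the labels were followed. By the protocol text the mice of all 4 groups are of the same Apc mutant line, so none has wild-type Apc. Adenoma and epithelium differ in tissue and in drug at once, and the 2 drugs were given only together in adenoma, so their parts cannot be told apart.

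P450 enzymes sit in the membrane of the endoplasmic reticulum, bind haem and use electrons from cytochrome P450 reductase to insert oxygen into lipophilic molecules. Families 1 to 3 oxidise drugs, carcinogens and steroids, and several Cyp2c and Cyp2j enzymes also turn arachidonic acid into epoxides. Family 4 enzymes mostly hydroxylate the far end of fatty acids and leukotrienes. Their genes lie in clusters of close relatives and are switched by ligand-bound receptors such as Ahr, Pxr (Nr1i2), Car (Nr1i3) and Ppara.

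Levels are log2 intensities relative to the 75th percentile of the same array, so a level of 0 lies at that percentile and each unit is a doubling of intensity. Levels of different probes were not set against each other. On single arrays, 25 to 42 of the 54 genes were well above background, the scanner software's own call. Arrays that differed by less than the spot noise were averaged, which left 2 treated adenoma samples (array 1; arrays 2 to 4), 2 untreated adenoma samples (arrays 1 and 2; array 3), 3 samples of tumor-bearing epithelium (arrays 1 and 3; array 2; array 4) and 3 of tumor-free epithelium (array 1; array 2; arrays 3 and 4). Array 2 of tumor-bearing epithelium and array 2 of tumor-free epithelium differed by an SD of 0.183 on the log2 scale, against a spot noise of 0.178, although their labels put them in different groups. They were kept under their labels, and counts without both are given. Array 4 of tumor-bearing epithelium stood apart from the other epithelium arrays, as described below.

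The probes that carried the main results are shown in lower case, 5′ to 3′, as the array design gives them. The probe of Cyp2f2 lies at chr7:24052410-24052469 on the plus strand (mm7), that of Cyp2c55 at chr19:38807081-38807140 on the plus strand, that of Cyp2s1 at chr7:22576517-22576576 on the minus strand, that of Cyp4f14 at chr17:31107040-31107099 on the minus strand and that of Cyp2b9 at chr7:23107426-23107485 on the plus strand.
Cyp2f2: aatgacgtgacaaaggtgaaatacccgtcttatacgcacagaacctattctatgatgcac
Cyp2c55: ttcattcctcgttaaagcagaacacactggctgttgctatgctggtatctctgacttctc
Cyp2s1: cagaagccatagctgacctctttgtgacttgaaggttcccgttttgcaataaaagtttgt
Cyp4f14: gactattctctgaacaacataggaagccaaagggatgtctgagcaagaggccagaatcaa
Cyp2b9: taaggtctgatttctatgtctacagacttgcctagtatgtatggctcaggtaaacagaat
Paralogs could share a probe's signal. Among all pairs of probes of different P450 genes, compared without gaps over at least 40 bases, 1 pair reached 80% identity. A second probe of Cyp2c40 and a probe of Cyp2c54 matched at 38 of 46 bases (82.6%). Shorter overlaps were not counted, and the start of the chosen Cyp2j13 probe is close to the end of the chosen Cyp2j11 probe. Probes were not compared with the transcripts of paralogs, so shared signal was not tested.

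Detection differed between the genes. Of the 54 genes, 19 were well above background on all 15 arrays, 30 on some and 5 on none. The 5 on none were Cyp1a1, Cyp2a12, Cyp2c38, Cyp3a25 and Cyp3a44. Cyp1a1, Cyp1a2 and Cyp2e1, which activate polycyclic hydrocarbons, aromatic amines and small solvents, were at or near background throughout: Cyp1a2 and Cyp2e1 were well above background on 1 array each, both times array 1 of tumor-free epithelium.

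**Figure D1:**
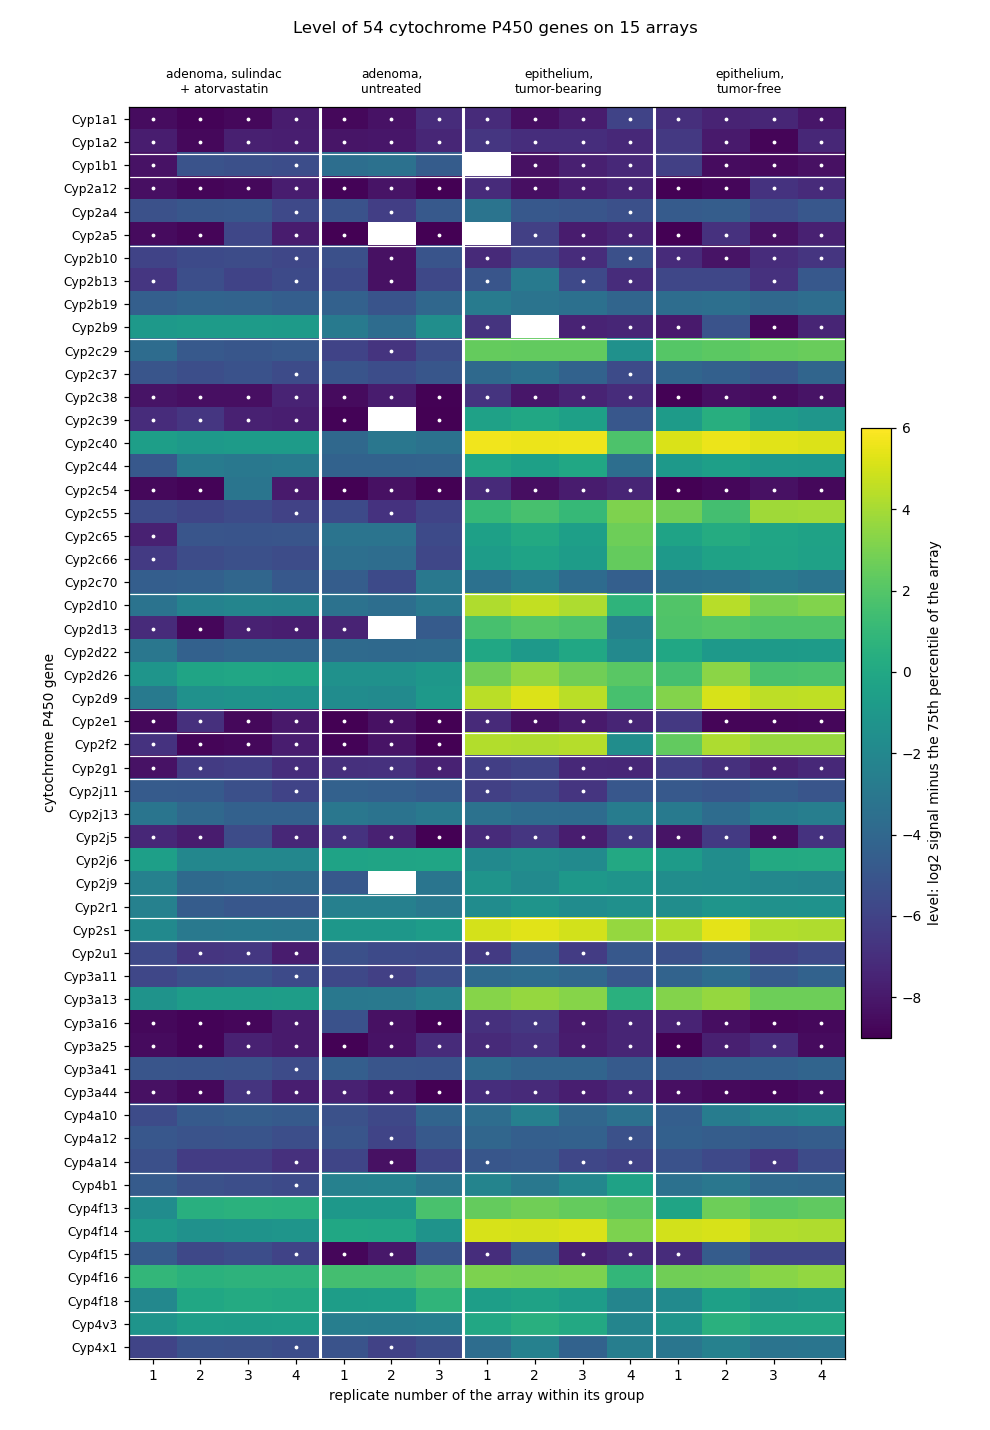
Level (log2 intensity minus the 75th percentile of the array, colour) of 54 P450 genes in rows on 15 arrays in columns, by group. White dots mark spots not well above background and white cells spots flagged as outliers. Cyp2c29, Cyp2c40, Cyp2d9, Cyp2d10, Cyp2f2, Cyp2s1 and Cyp4f14 are bright in epithelium and dark in adenoma, Cyp2b9 is the reverse, and array 4 of tumor-bearing epithelium differs from its group in several rows.

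Adenoma against epithelium asked how the P450 genes differ between tumor and normal cells of the colon. Of the 54 genes, 38 could be tested, and limma called 21 lower and 2 higher in adenoma at an adjusted p under 0.05. Over all 18902 genes tested, 12.6% were called lower and 9.13% higher (21.8% in either direction). The median difference of the 38 P450 genes was -1.9 on the log2 scale, beside -0.17 for all genes tested. It was also -1.9 with 5 genes near background in 1 tissue set to the fold against background described below. Each of these 5 stayed on its side of the median, so the median could not move. Of the 23 called genes, Cyp1b1, Cyp2c44 and Cyp4a10 had overlapping adenoma and epithelium samples. The share without overlap among all called genes was not computed, so separation of the samples is given here only as a description of single genes. The filter matters for the count of called genes: 29 of the 38 were well above background on all arrays of at least 1 group in both tissues. Of these, 15 were called lower, 0 higher and 14 were not called. A further 7 passed through epithelium alone: Cyp2a4, Cyp2c39, Cyp2c55, Cyp2d13, Cyp2f2, Cyp3a11 and Cyp4x1. Of these, 6 (all but Cyp2a4) were called lower. Another 2, Cyp1b1 and Cyp2b9, passed through adenoma alone, and both were called higher. Genes that passed through 1 tissue alone were kept for being well above background on all unflagged arrays of a group of that tissue. In the other tissue they were dim on at least 1 array of each group, so their calls are not independent of the filter. Without array 4 of tumor-bearing epithelium 26 were called lower and 2 higher. Without the near-identical pair across groups 17 were called lower and 1 higher.

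Absorptive colonocyte markers moved with this contrast: 12 of 15 were called lower, and their summed linear level was 48.5 to 82.6 in treated adenoma samples and 72.5 to 102 in untreated ones, against 342 to 596 in tumor-bearing and 554 to 590 in tumor-free epithelium. Car4 was well above background on no treated adenoma array. Goblet markers were called lower for 5 of 7 (sums of 101 to 264 in adenoma against 443 to 636 in epithelium) and enteroendocrine markers for 6 of 6 tested (3.18 to 68.3 against 113 to 209). Stem cell and Wnt target markers were called higher for 8 of 9 (98.4 to 202 against 9.99 to 25.1). Of the general epithelial markers 4 of 9 were called lower, with sums of 281 to 370 in adenoma against 372 to 606 in epithelium. Of the hepatocyte markers, which P450 genes of liver could accompany, 1 was called higher and 2 lower of 5 tested, with sums of 1.43 to 5.55 against 0.601 to 6.05, and Apoa1 was well above background on no array. Of the other lists, B and plasma cell markers were called lower for 3 of 4 tested, smooth muscle for 4 of 6, red blood cell for 2 of 2 and mast cell for 1 of 6 (2 higher), endothelial markers were called higher for 1 of 5, and macrophage and fibroblast markers were called for 0. The part of these cell types in the P450 results was not tested, and fewer cells of a type and less RNA per cell cannot be told apart in such samples.

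**Figure D2:**
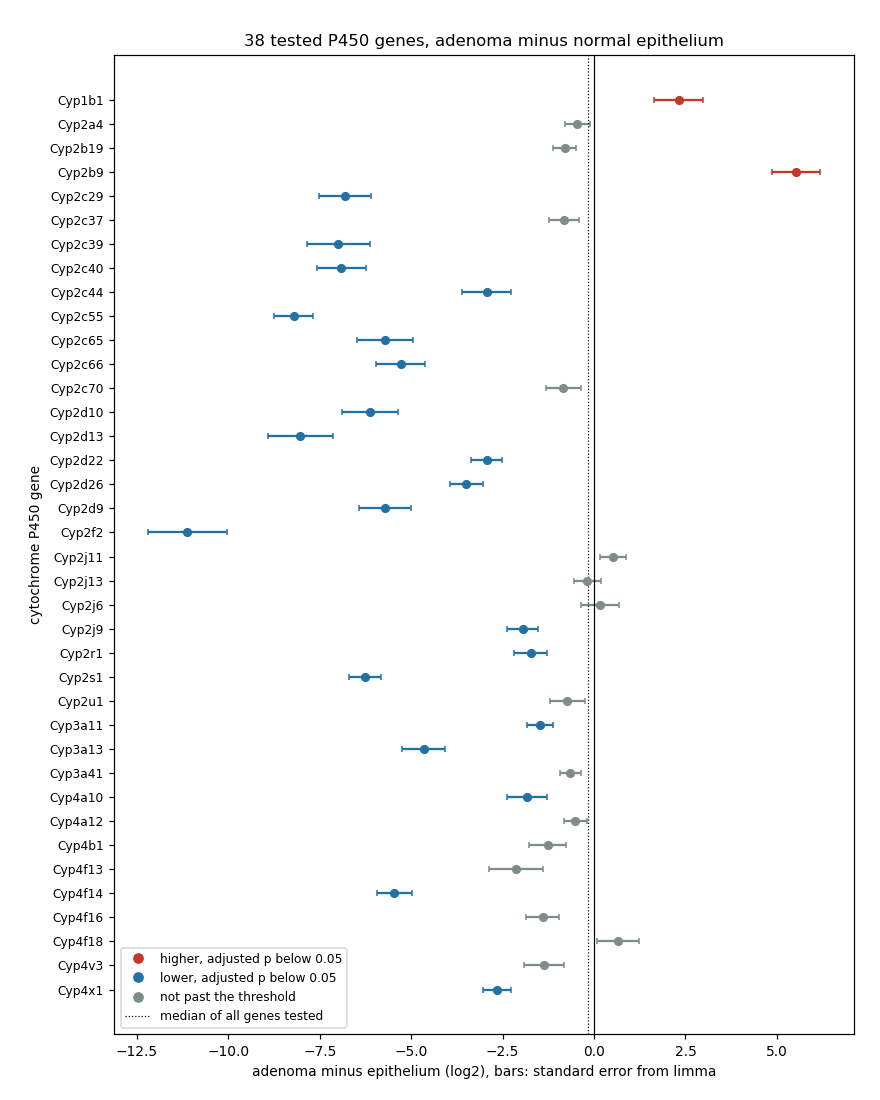
Difference of adenoma minus epithelium (log2, x axis) for the 38 tested P450 genes (y axis), with standard errors from limma. Of these, 21 are called lower, 2 higher and 15 not, and the dotted line marks the median of all genes tested at -0.17. For genes near background in 1 tissue the point is the fitted value, not the fold against background given in the text.

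The Cyp2c genes, which hydroxylate drugs and oxidise arachidonic and retinoic acid, made up 7 of the 21 lower calls. Of 11 genes, 9 were tested, and the 7 called had log2 differences of -8.22 to -2.94. Cyp2c55, which in mice makes hydroxylated and epoxidised products of arachidonic acid, had levels of -5.58, -5.89, -5.55 and -6.06 in treated adenoma and -5.62, -6.82 and -5.99 in untreated adenoma. The same probe gave 1.03, 1.64, 1.02 and 3.09 in tumor-bearing and 2.72, 1.53, 3.85 and 3.93 in tumor-free epithelium. Every adenoma array lay under every epithelium array. The difference was -8.22 ± 0.53 (SE; 298-fold lower; limma adjusted p = 8.34e-06). Cyp2c55 passed the filter through epithelium alone and was well above background on 5 of the 7 adenoma arrays. Its fold thus rests in part on values not well above background.

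Cyp2c40, which in mice makes 16-hydroxylated arachidonic acid, differed within adenoma as well. Its levels were -0.6, -0.96, -0.78 and -0.79 in treated and -3.95, -3.07 and -3.34 in untreated adenoma, against 5.66, 5.58, 5.61 and 1.83 in tumor-bearing and 5.17, 5.56, 5.32 and 5.19 in tumor-free epithelium. The tissues did not overlap even with array 4 of tumor-bearing epithelium, the lowest of the 8. The difference was -6.91 ± 0.68 (120-fold lower; limma adjusted p = 0.000106). Its second probe, which is the one related to Cyp2c54, gave -5.54 ± 0.67.

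Cyp2c29, an epoxygenase of arachidonic acid in mice, ranged over -6.75 to -3.7 (median -5) on 7 adenoma arrays, against -1.42 to 2.58 (median 2.4) on 8 epithelium arrays. It was 112-fold lower in adenoma (limma adjusted p = 0.000165). Cyp2c39, which hydroxylates retinoic acid in mice, was well above background on none of the adenoma arrays, with levels of -9.13 to -6.63 (median -7.7 over 6 unflagged arrays), and on all 8 epithelium arrays at -4.9 to 0.38 (median -0.6). A gene well above background on no or few arrays of a tissue has only a bound there. In a group with no array well above background, the higher of the gene's signal and the lowest signal well above background (the floor) was taken on each array. A group with some such arrays kept its own mean, so the fold is then not a strict bound. Cyp2c39, dim on every adenoma array, was at least 43.1-fold lower in adenoma (limma adjusted p = 0.000355).

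Cyp2c65 and Cyp2c66, neighbouring genes with intestinal expression in mice, followed a different course within the epithelium. Cyp2c66 ranged over -6.48 to -3.52 (median -5.49) in adenoma, against -0.9 to 2.47 (median -0.4) in epithelium, and was 39.3-fold lower (limma adjusted p = 0.000441). Cyp2c65 ranged over -7.65 to -3.23 (median -5.06) in adenoma, against -0.53 to 2.68 (median -0.26) in epithelium, and was 52.7-fold lower (limma adjusted p = 0.000596). For both genes the highest epithelium value was array 4 of tumor-bearing epithelium, the array that was lowest for Cyp2c29, Cyp2c39 and Cyp2c40. Cyp2c44, an epoxygenase of mouse kidney and liver, was 7.67-fold lower in adenoma with overlapping samples (limma adjusted p = 0.0127). Cyp2c37 (-0.82 ± 0.41) and Cyp2c70 (-0.84 ± 0.48) did not pass the threshold, and Cyp2c38 and Cyp2c54 were not tested.

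The position of the genes on chromosome 19 was not used to choose them. In the RefSeq order of the annotation, the 5 genes at one end of the set (Cyp2c55, Cyp2c65, Cyp2c66, Cyp2c29 and Cyp2c39) and Cyp2c40 were all called lower, with fitted differences of -8.22 to -5.29. The next tested genes along the chromosome, Cyp2c37 and Cyp2c70, were not called, and Cyp2c44 at the other end was called lower with a difference of -2.94. On chromosome 15 all 5 Cyp2d genes were called lower. On chromosome 7 the only gene of the order called higher, Cyp2b9, stood between Cyp2s1 and Cyp2f2, both called lower.

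**Figure D3:**
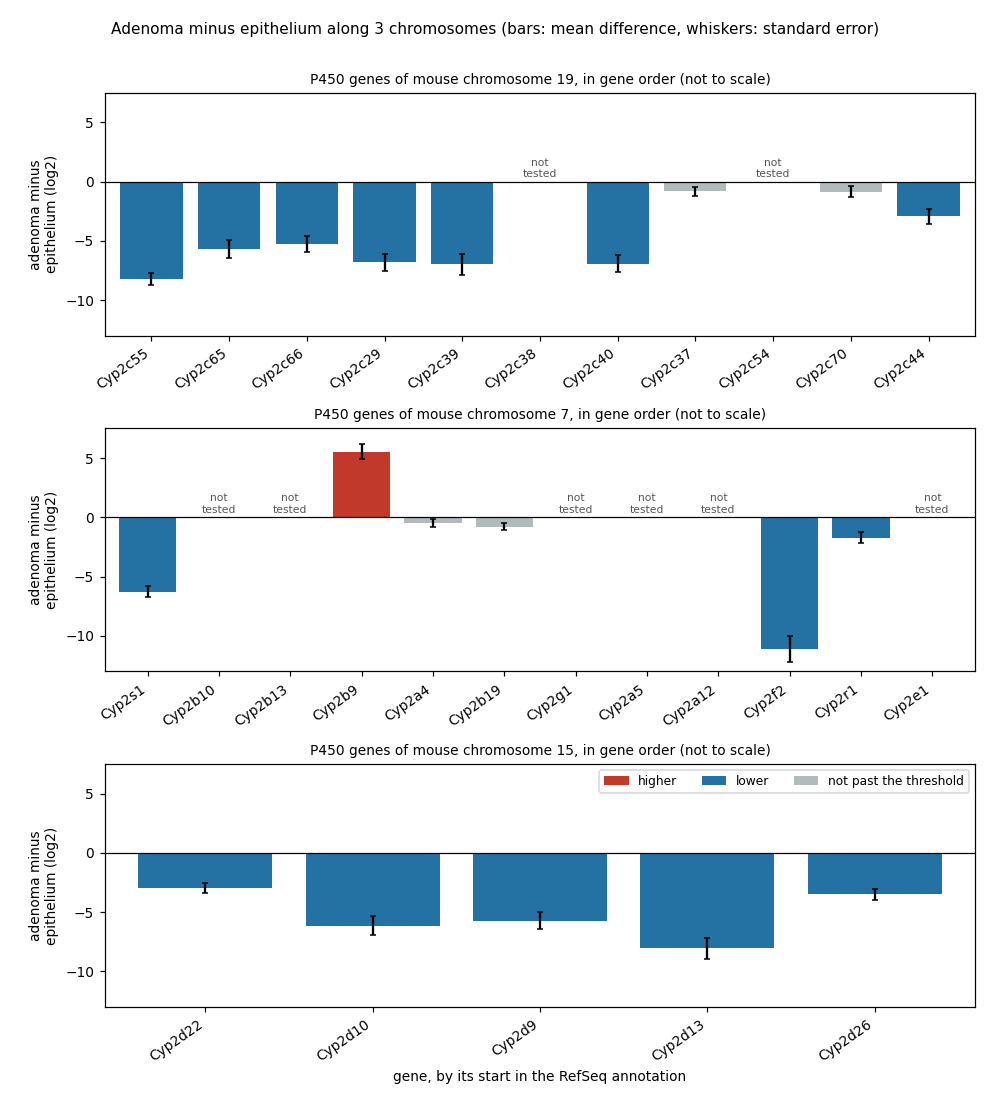
Fitted adenoma minus epithelium (log2, bars, with standard errors as whiskers) for the P450 genes of chromosomes 19, 7 and 15 in gene order, without distances. Blue bars are called lower, red higher and grey not called; Cyp2b9 at 5.53 is the red bar between Cyp2s1 at -6.27 and Cyp2f2.

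The Cyp2d genes, relatives of the human enzyme CYP2D6 that oxidises many basic drugs, were called lower for 5 of 5. Cyp2d9, a steroid hydroxylase that in mouse liver is typical of males, ranged over -2.84 to -0.87 (median -1.39) in adenoma, against 1.63 to 5.22 (median 4.5) in epithelium. It was 53.1-fold lower in adenoma (limma adjusted p = 0.000401), and its second probe gave -5.65 ± 0.7 beside -5.73 ± 0.71. Cyp2d10 ranged over -3.58 to -2.2 (median -2.92) in adenoma, against 0.75 to 4.6 (median 3.64) in epithelium, and was 70.2-fold lower (limma adjusted p = 0.000425). Its second probe gave a smaller difference of -3.25 ± 0.75, in the same direction. Cyp2d13 was well above background on 1 of the 7 adenoma arrays, array 3 of untreated adenoma at -4.71, and on all epithelium arrays (-2.48 to 2.07, median 1.85). It was 166-fold lower in adenoma (limma adjusted p = 0.000203), with the floor applied in treated adenoma only, so this is not a strict bound.
Cyp2d26 ranged over -1.4 to -0.13 (median -1.07) in adenoma, against 1.55 to 3.55 (median 2.46) in epithelium, and was 11.2-fold lower (limma adjusted p = 0.000577). Cyp2d22, the mouse gene most often set beside human CYP2D6, was 7.68-fold lower (limma adjusted p = 0.00104), and its other probes gave -3.63 and -3.12 beside -2.94.

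Cyp2f2, which bioactivates naphthalene in the mouse lung, showed the largest gap among the P450 genes tested. It was well above background on none of the 7 adenoma arrays, at -6.83, -8.79, -8.66 and -7.79 in treated and -8.88, -8.23 and -9.25 in untreated adenoma. In epithelium it stood at 4.3, 4.22, 4.35 and -1.63 in tumor-bearing and 2.37, 4.15, 3.7 and 3.69 in tumor-free mice. Every epithelium array was above every adenoma array, array 4 of tumor-bearing epithelium included. Cyp2f2 was at least 640-fold lower in adenoma (limma adjusted p = 9.7e-05).

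Cyp2s1, an extrahepatic enzyme that acts on retinoids and prostaglandin intermediates, had levels of -1.88, -2.92, -2.89 and -2.96 in treated and -1.05, -1.06 and -0.68 in untreated adenoma. The epithelium values were 5.02, 5.32, 4.99 and 3.64 in tumor-bearing and 4.26, 5.36, 4.27 and 4.24 in tumor-free mice. No array of one tissue came near the other, and the gene was 77.4-fold lower in adenoma (limma adjusted p = 1.41e-05). Cyp3a13, the Cyp3a gene of the mouse intestine, ranged over -2.97 to -0.66 (median -1.31) in adenoma, against 0.5 to 3.64 (median 3.24) in epithelium, and was 25.3-fold lower (limma adjusted p = 0.000419). Cyp3a11, the main inducible Cyp3a gene of mouse liver, was 2.79-fold lower (limma adjusted p = 0.0149). It passed the filter through epithelium alone and was well above background on 5 of the 7 adenoma arrays. Cyp3a41 (-0.65 ± 0.29) was not past the threshold, and Cyp3a16, Cyp3a25 and Cyp3a44 were not tested.

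The vitamin D 25-hydroxylase Cyp2r1 was 3.31-fold lower in adenoma (limma adjusted p = 0.022) with an uneven spread: the 3 averaged treated adenoma arrays stood at -4.64, -4.92 and -4.93, the other 4 adenoma arrays at -2.96 to -2.41 and epithelium at -1.72 to -1.2. Among the Cyp2j genes, whose enzymes epoxidise arachidonic acid, Cyp2j9 was 3.86-fold lower (limma adjusted p = 0.00958). Cyp2j6 (0.17 ± 0.52) and Cyp2j11 (0.52 ± 0.35) were not past the threshold.
The probes of Cyp2j13 disagreed. The probe with the highest mean gave -0.18 ± 0.37, which was not past the threshold, and a second tested probe was called lower in adenoma (limma adjusted p = 0.000384 in the fit with every probe as its own row). On the second, levels were -8.56, -8.54, -8.73 and -7.84 in treated and -8.1, -8.22 and -9.23 in untreated adenoma, none well above background, against -4.09, -4.96, -4.12 and -4.28 in tumor-bearing and -4.91, -4.91, -6.46 and -6.53 in tumor-free epithelium. The first probe is placed at chr4:95438221-95449204, a span longer than the probe itself, and the second lies at chr4:95437900-95437959 (both mm7, minus strand); the second has only a bound in adenoma, and both are shown because their calls differed.
Cyp2j13 first probe: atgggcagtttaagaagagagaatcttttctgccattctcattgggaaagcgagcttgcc
Cyp2j13 second probe: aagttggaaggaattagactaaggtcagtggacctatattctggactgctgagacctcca

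In family 4, 3 of 9 tested genes were called lower. Cyp4f14, which in mice inactivates leukotriene B4 by hydroxylating its end, had levels of -0.9, -1.39, -1.31 and -1.2 in treated and -0.06, -0.15 and -1.29 in untreated adenoma. In epithelium it stood at 5.09, 5.04, 5.14 and 3.02 in tumor-bearing and 4.95, 5.1, 4.25 and 4.2 in tumor-free mice. The tissues were separated on every array, and Cyp4f14 was 44.4-fold lower in adenoma (limma adjusted p = 5.37e-05). Cyp4x1, a family member known mostly from brain, was 6.29-fold lower (limma adjusted p = 0.000959). It passed the filter through epithelium alone and was well above background on 5 of the 7 adenoma arrays. Cyp4a10, a Ppara target that hydroxylates fatty acids, was 3.58-fold lower with overlapping samples (limma adjusted p = 0.0389).
The leukotriene and fatty acid hydroxylases Cyp4f13 (-2.13 ± 0.74), Cyp4f16 (-1.4 ± 0.45, limma adjusted p = 0.0509) and Cyp4f18 (0.66 ± 0.57) did not pass the threshold. Nor did Cyp4v3 (-1.37 ± 0.55), Cyp4b1 (-1.27 ± 0.5) or Cyp4a12 (-0.51 ± 0.32).

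Cyp2b9 was, on its chosen probe, the clearest exception to the lower levels. This relative of the phenobarbital-inducible Cyp2b10 had levels of -0.89, -0.76, -0.78 and -0.8 in treated and -2.8, -3.7 and -1.61 in untreated adenoma. In epithelium it stood at -6.73, -7.49 and -7.39 in tumor-bearing mice (array 2 was flagged as an outlier) and -7.93, -5.18, -8.73 and -7.47 in tumor-free mice, where array 2 alone was well above background. All adenoma arrays lay above all epithelium arrays. The gene's other probe had a mean level of -7.47 over the arrays and passed the filter in no group, so the result rests on the chosen probe. With the floor applied in tumor-bearing epithelium only, Cyp2b9 was 22.7-fold higher in adenoma (limma adjusted p = 0.00046), which is not a strict bound.
The chosen probes of Cyp2b10 and Cyp2b13 did not pass the filter, while a second probe of each did when every probe was its own row. The second probe of Cyp2b13 stood at -4.34, -4.13, -3.93 and -4.12 in treated and -6.19, -6.59 and -3.89 in untreated adenoma, against -7.82 to -7.15 in tumor-bearing and -8.78 to -8.16 in tumor-free epithelium, where no array was well above background. It was called higher in adenoma (limma adjusted p = 0.00114), as was the second Cyp2b10 probe (limma adjusted p = 0.0162), which was also well above background on no epithelium array, so both have only a bound there. The chosen Cyp2b13 probe did not share this: it had its highest value, -2.85, on array 2 of tumor-bearing epithelium. No pair of Cyp2b probes reached 80% identity in the comparison of probes with each other, which does not test binding to a paralog's transcript. Cyp2b19 (-0.8 ± 0.31) was not past the threshold.

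Cyp1b1, an Ahr target that hydroxylates oestradiol and polycyclic hydrocarbons, was the other gene called higher. Its levels were -8.27, -5.18, -5.31 and -5.44 in treated and -3.57, -3.4 and -4.64 in untreated adenoma, and -8.61 to -6.14 on the 7 unflagged epithelium arrays, of which array 1 of tumor-free epithelium was the only one well above background. Array 1 of treated adenoma lay among the epithelium arrays, so the tissues overlapped. With the floor applied in tumor-bearing epithelium only, the gene was 2.37-fold higher in adenoma (limma adjusted p = 0.0365), which is not a strict bound. This call was lost with the authors' deposited values, against either epithelium alone, without any of the 4 averaged samples and without the near-identical pair across groups. It was also lost without array 3 of untreated adenoma, array 2 or 3 of tumor-bearing epithelium or array 2 of tumor-free epithelium. With treated adenoma as the only adenoma group Cyp1b1 did not pass the filter. Cyp2a4 (-0.46 ± 0.34) and Cyp2u1 (-0.73 ± 0.47) were not past the threshold.

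Scan dates held arrays of both tissues on 3 occasions. Within the first date, 23 of the 23 called genes had the direction of the pooled result, within the second 23 and within the fourth 22, where Cyp2c44 ran the other way. These dates compare adenoma with tumor-bearing epithelium only, since tumor-free epithelium was scanned on dates of its own. The genes were called from these same arrays, so the shared directions are not a separate test, and the share among all called genes was not computed. The first and second dates are not independent either. Arrays 1 and 2 of untreated adenoma, and arrays 1 and 3 of tumor-bearing epithelium, are near-identical pairs split between them.

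Treated against untreated adenoma asked what 7 days of both drugs did to the P450 genes of the tumors. limma called 0 of the 31 tested genes at an adjusted p under 0.05, beside 0.216% of all 17618 genes tested (38 called, 0.114% higher and 0.102% lower). At an unadjusted p under 0.05 there were 4 of the 31 P450 genes and 2084 of all genes. The median difference of the 31 genes was -0.41, beside 0.05 for all genes tested. Each group had 2 samples here.

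The 3 P450 genes with the largest moderated t, none past the threshold, moved in both directions. Cyp4b1, a family 4 enzyme that bioactivates aromatic amines and furans, had levels of -4.71, -5.27, -5.42 and -5.61 in treated adenoma, against -2.41, -2.36 and -3.14 in untreated adenoma. The difference was -2.31 ± 0.78 (limma unadjusted p = 0.0142, adjusted p = 0.302). Cyp1b1 differed by -2.73 ± 1.05 (adjusted p = 0.351 by limma) with the levels given above, and 2 of its 4 treated arrays were not well above background. Cyp2c40, at -0.96 to -0.6 in treated and -3.95 to -3.07 in untreated adenoma, differed by 2.7 ± 1.06 (adjusted p = 0.365 by limma). On this probe the treated samples lay nearer to epithelium. The second Cyp2c40 probe did not share this. It stood at -6.86, -7.57, -7.13 and -7.11 in treated adenoma, none well above background, and at -4.36, -8.29 and -4.7 in untreated adenoma, where array 2 was not well above background.
Cyp2s1, at -2.96 to -1.88 in treated and -1.06 to -0.68 in untreated adenoma, differed by -1.54 ± 0.67. Cyp3a13 differed by 1.7 ± 0.9, Cyp4v3 by 1.65 ± 0.85 and Cyp2b9 by 1.59 ± 0.96, none past the threshold. Within the scan dates that held both groups, Cyp4b1 differed by -2.35 and -2.38, Cyp2c40 by 2.47 and 2.55, and Cyp1b1 by -4.87 and -0.73. These dates divide the same arrays that gave the pooled differences. The genes were picked for their moderated t on those arrays, so the values within dates are not a separate test.
Between the same groups the summed enteroendocrine markers were 46.4 to 68.3 in treated and 3.18 to 8.33 in untreated adenoma, the goblet markers 101 to 149 and 218 to 264 (1 called lower), the absorptive colonocyte markers 48.5 to 82.6 and 72.5 to 102, and the stem cell and Wnt target markers 146 to 202 and 98.4 to 111. The mast cell markers were 1.06 to 1.09 in treated and 2.87 to 3.55 in untreated adenoma (1 called lower), the smooth muscle markers 23 to 28.6 and 11.8 to 14, and the hepatocyte markers 1.43 to 3.2 and 5.24 to 5.55. Their part in these P450 values was not tested.
With each of the 15 arrays as a sample of its own, 6 P450 genes were called: Cyp2c40, Cyp3a13 and Cyp4v3 higher and Cyp2r1, Cyp2s1 and Cyp4b1 lower. That fit counts near-identical arrays as independent. With the replicate number as a block on the 15 arrays, 5 of these were called, all but Cyp2r1. Without array 4 of tumor-bearing epithelium, which enters only the shared estimate of spread, Cyp2c40 alone was called (limma adjusted p = 0.034).

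**Figure D4:**
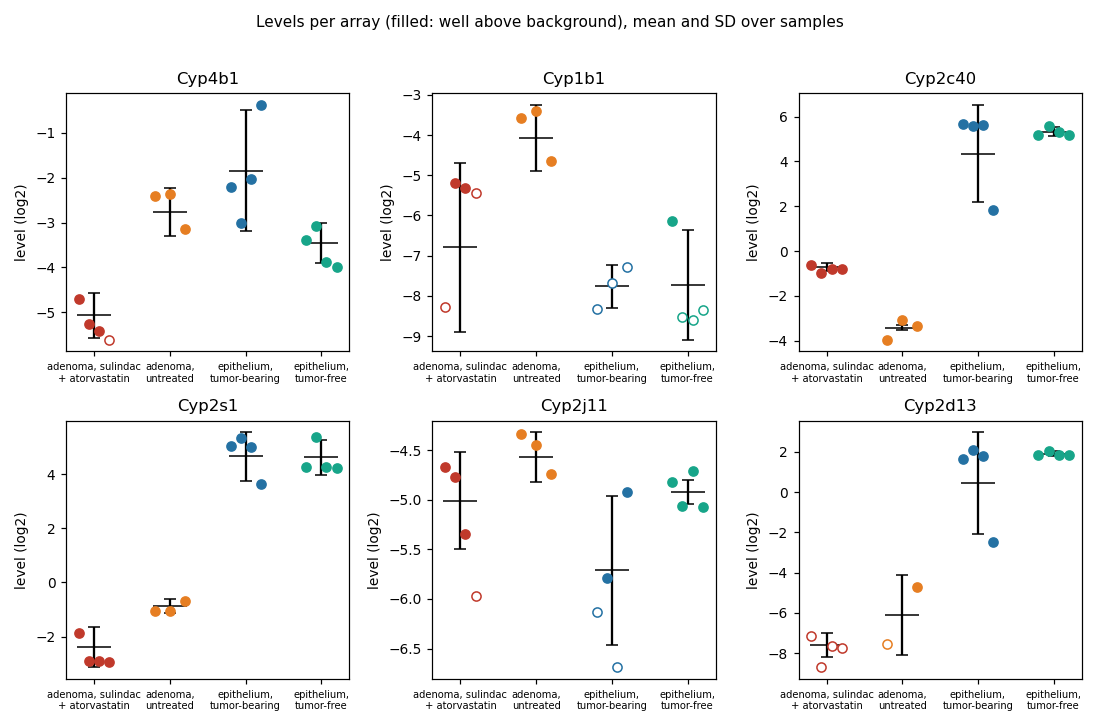
Level (log2, y axis) per array by group for the 3 P450 genes with the largest moderated t in either of the drug and epithelium contrasts, and Cyp2s1. Filled points are well above background; lines and whiskers are mean and SD over samples after averaging near-identical arrays. Treated adenoma lies below untreated adenoma for Cyp4b1 and above it for Cyp2c40, and 1 array of tumor-bearing epithelium lies apart for Cyp4b1, Cyp2c40 and Cyp2d13.

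Epithelium of tumor-bearing against tumor-free mice, both given atorvastatin, asked whether a tumor elsewhere in the colon went with another P450 pattern in normal cells. limma called 0 of the 36 tested genes, beside 0% of all 17638 genes tested (463 at an unadjusted p under 0.05, of which Cyp4b1 was the 1 P450 gene). The median difference of the P450 genes was -0.12, beside 0.01 for all genes. Cyp4b1 stood at -2.21, -3.02, -2.03 and -0.37 in tumor-bearing and -3.38, -3.07, -3.87 and -3.99 in tumor-free epithelium, a difference of 1.63 ± 0.64 (limma unadjusted p = 0.0288, adjusted p = 0.997). Cyp2j11 differed by -0.78 ± 0.44 and Cyp2d13 by -1.47 ± 1.12, both with overlapping samples. No scan date held both epithelia, so scan date and tumor status cannot be told apart here.

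The spread within tumor-bearing epithelium came largely from 1 array. On array 4, 13 of the 38 tested P450 genes lay more than 1 log2 unit under the lowest of the other 7 epithelium arrays, and 3 lay more than 1 unit above the highest. On each of the other 7 epithelium arrays at most 1 gene lay that far under the rest and at most 1 that far above. The 13 low genes included Cyp2f2 (-1.63, against 2.37 to 4.35 on the others), Cyp2d13 (-2.48, against 1.64 to 2.07), Cyp2c39 (-4.9, against -1.13 to 0.38), Cyp2c29 (-1.42, against 2.04 to 2.58), Cyp2c40 (1.83, against 5.17 to 5.66) and Cyp3a13 (0.5, against 2.67 to 3.64). The 3 high genes were Cyp2c65 (2.68, against -0.53 to 0.23), Cyp2c66 (2.47, against -0.9 to -0.26) and Cyp4b1 (-0.37, against -3.99 to -2.03).
Cyp2s1 (3.64, against 4.24 to 5.36) and Cyp2d26 (2.18, against 1.55 to 3.55) did not stand apart in this way. On the same array the summed absorptive colonocyte markers stood at 342, against 554 to 596 in the other epithelium samples, the stem cell and Wnt target markers at 25.1 against 9.99 to 20.8, and the red blood cell markers at 11.4 against 0.457 to 6.65. The hepatocyte markers stood at 0.601 against 3.32 to 6.05, the general epithelial markers at 372 against 436 to 606 and the endothelial markers at 2.63 against 3.74 to 8.55. Their part in the P450 levels of that array was not tested.

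Electron donors and haem genes supply P450 enzymes with electrons and their cofactor. Of 12 tested, limma called 1 higher in adenoma and 0 lower: Hmox1, which breaks down haem, was 4.05-fold higher with overlapping samples (adjusted p = 0.0409 by limma). Por, the reductase that feeds electrons to all microsomal P450 enzymes, differed by -0.52 ± 0.46 and was not past the threshold. The median of the 12 was -0.4.

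The receptors that switch P450 genes were called lower for 11 of 24 tested and higher for 0, with a median of -1.18. Nr1i2 (Pxr, the sensor of drugs and bile acids that drives Cyp3a and Cyp2c genes) stood at -0.86, -0.59, -0.55 and -0.51 in treated and -1.12, -1.13 and -0.63 in untreated adenoma, against 1.33, 2.63, 1.44 and 1.35 in tumor-bearing and 2.18, 2.57, 1.85 and 1.9 in tumor-free epithelium. The tissues did not overlap, and it was 6.91-fold lower in adenoma (adjusted p = 0.00044 by limma). Nr1h4 (Fxr, the bile acid receptor) was 21.7-fold lower (adjusted p = 5.6e-05 by limma), and Nr1i3 (Car, which drives Cyp2b genes) was 13.4-fold lower with overlapping samples (adjusted p = 0.0182 by limma). On array 3 of untreated adenoma, a sample of its own, Nr1i3 stood at -8.69, under that array's lowest signal well above background (-6.98). Its fold thus rests in part on a background value. Hnf4a, a factor of liver and gut epithelium that binds many P450 promoters, was 3.39-fold lower (adjusted p = 0.00683 by limma). Ppara (8.94-fold), Nr1h3 (3.92-fold), Pparg (2.83-fold), Rxra (2.32-fold) and Nr3c1 (2.2-fold) were also called lower. Of these Pparg had overlapping samples: it stood at 0.03 and 0.27 in treated and 1.84 and 2.46 in untreated adenoma samples, against 2.33 to 2.86 in epithelium, and treated minus untreated adenoma was -2 ± 0.43 (adjusted p = 0.131 by limma).
Ahr, the receptor of dioxin-like compounds, differed by 0.72 ± 0.27 (adjusted p = 0.0868 by limma), at 0.85 to 0.94 in treated and -0.19 to -0.06 in untreated adenoma and -0.62 to 0.3 in epithelium. Ahrr, its repressor and target, was 8.98-fold lower (adjusted p = 0.000781 by limma). The count of partner genes called in adenoma against epithelium was 13 in all lists together and fell to 8 without arrays 1 and 2 of untreated adenoma, and also to 8 without the near-identical pair across groups.

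Of 4 epoxide hydrolases, which open the epoxides that P450 enzymes make, 1 was called lower. Ephx2, which hydrolyses epoxides of arachidonic acid, stood at -1.74 to -0.59 in treated and -1.53 to -0.89 in untreated adenoma, against 2.13 to 3.55 in tumor-bearing and 2.13 to 3.44 in tumor-free epithelium, and was 17.1-fold lower in adenoma (adjusted p = 0.00014 by limma). Ephx1, which acts on epoxides of drugs and hydrocarbons, differed by -0.08 ± 0.59. Of 14 tested P450 genes of other families, which make and break down sterols, steroids, retinoids and eicosanoids, 0 were called by limma, with a median of -0.08. In the drug contrast and in the epithelium contrast, 0 partner genes were called.

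**Figure D5:**
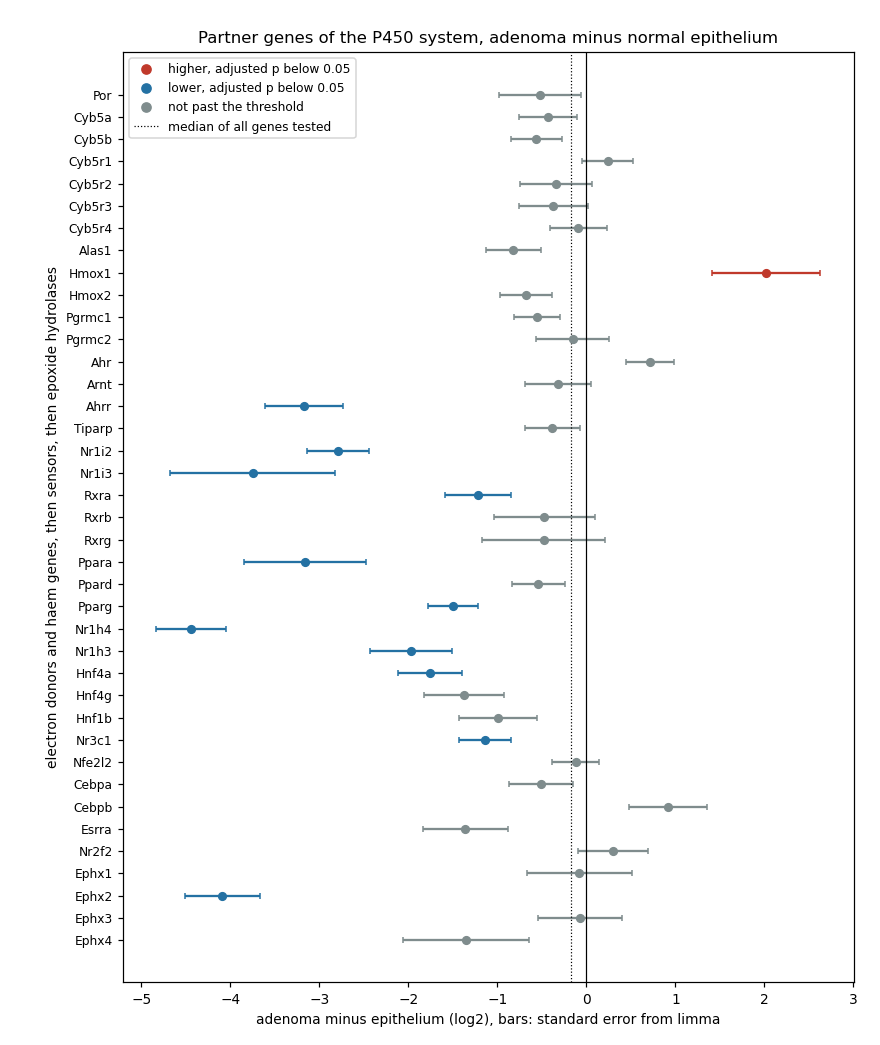
Difference of adenoma minus epithelium (log2, x axis) with standard errors from limma for electron donors and haem genes, receptors and epoxide hydrolases (y axis, in this order from the top; 1 gene is not drawn). Blue points, among them Nr1h4 at -4.44, Ephx2 at -4.09 and Nr1i2 at -2.79, are called lower, and Hmox1 at 2.02 is the only one called higher.

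Promoter windows of 300 bases, from 250 before to 50 after the gene start, were taken from RefSeq (GRCm38.p6) and matched 44 of the 54 genes in 50 windows. They were searched on both strands for short motifs. CAAAGTNCA, a form of the Hnf4 site, was found for 9 of the 44 genes, in 9 of 50 windows, beside 1.41% of all 32851 windows. The 9 were Cyp2c37, Cyp2c40, Cyp2c65, Cyp2c70, Cyp2d26, Cyp3a11, Cyp3a16, Cyp3a41 and Cyp3a44. Of these, Cyp2c40, Cyp2c65, Cyp2d26 and Cyp3a11 were called lower in adenoma, Cyp2c37, Cyp2c70 and Cyp3a41 were not called, and the other two were not tested. These genes are close paralogs within each cluster, so their windows share ancestry and are not independent. TNGCGTG, the core of the Ahr site, was found in 0 of the 50 windows, beside 5.07% of all windows. TTTATTG, a Cdx site, was found in 1 of the 50 windows (Cyp2c55), beside 4.6% of all windows. CTTTGAT, the Tcf core, was found in 3 of the 50 windows (Cyp2c29 and Cyp2c39), beside 3.73% of all windows. Such a match is a description of letters and not evidence of binding.
The windows of 3 genes called lower are shown with the Hnf4 letters in capitals, read along the strand of the gene. That of Cyp2c40 is chr19:39812765-39813064 (minus strand), that of Cyp2c65 is chr19:39060756-39061055 (plus strand) and that of Cyp2d26 is chr15:82794196-82794495 (minus strand). The match runs from base -45 to -37 before the start for Cyp2c40, from -116 to -108 for Cyp2c65 and from -58 to -50 for Cyp2d26.
Cyp2c40 promoter: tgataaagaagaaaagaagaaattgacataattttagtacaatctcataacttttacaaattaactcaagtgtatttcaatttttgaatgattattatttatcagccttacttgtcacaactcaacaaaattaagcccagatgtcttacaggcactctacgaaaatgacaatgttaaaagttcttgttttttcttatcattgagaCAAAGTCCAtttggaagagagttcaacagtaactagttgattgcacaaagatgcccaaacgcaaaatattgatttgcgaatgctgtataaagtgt
Cyp2c65 promoter: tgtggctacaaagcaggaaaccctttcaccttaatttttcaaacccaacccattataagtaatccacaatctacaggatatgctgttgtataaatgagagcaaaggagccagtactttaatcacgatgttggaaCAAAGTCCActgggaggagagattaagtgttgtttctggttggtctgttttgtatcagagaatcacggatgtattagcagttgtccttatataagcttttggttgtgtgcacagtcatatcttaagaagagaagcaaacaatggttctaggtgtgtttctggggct
Cyp2d26 promoter: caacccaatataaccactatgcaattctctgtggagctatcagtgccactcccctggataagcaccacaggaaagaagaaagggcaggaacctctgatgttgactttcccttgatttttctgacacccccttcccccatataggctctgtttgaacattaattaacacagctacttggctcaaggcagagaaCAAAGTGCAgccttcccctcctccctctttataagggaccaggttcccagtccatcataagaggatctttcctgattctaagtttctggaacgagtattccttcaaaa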

How the data were processed

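Scanner images were quantified with Feature Extraction 9.5.3 per the file headers. The deposited scanner files give per spot a mean intensity, a local background intensity, a processed intensity with the background subtracted and flags for outlying spots and spots well above background. The authors' deposited value table holds log2 values made in a way not given in the sources used here. Its 4 columns for tumor-bearing epithelium matched that group's scans in the opposite order, and it served as an alternative only, each column set beside the scan it matched.

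The processed intensity was put on the log2 scale and the 75th percentile of the array over non-control probes was subtracted. Control spots and outlying spots were left out, spots of 1 probe were averaged, and each gene is given by its probe with the highest mean over all arrays. Probe positions were taken as deposited (mouse build mm7). Current symbols come from RefSeq (GRCm38.p6) and differ for 3 genes: Cyp2c44 is now Cyp2c23, Cyp3a41 is Cyp3a41a and Cyp4a12 is Cyp4a12a.

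Arrays of 1 group that differed by less than the spot noise of the scanner software (SD of log2 differences against the spread of replicate spots) were averaged and count as 1 sample, which left 10 samples from 15 arrays. Differences were fitted with limma 3.58.1 in R 4.3.3 (lmFit and eBayes, 4 groups in 1 fit, two-sided, with 6 residual degrees of freedom and 3.9 from the prior, Benjamini-Hochberg over all genes tested, threshold 0.05). The filter kept genes that, in at least 1 group of the contrast, exceeded background on all unflagged arrays (at least 2). The fit was tested on simulated data. The deposited samples are described as biological replicates, yet near-identical arrays occur, so p-values measure only the spread between these samples.

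The P450 genes, the partner genes and the marker lists were chosen with earlier results of these data known. Values per array are given for at most 14 called P450 genes with the largest moderated t and, in a contrast with fewer than 3 calls, for the 3 with the largest moderated t. Partner genes are named where called, except 1 that is counted but not reported here, and Por, Ahr, Nr1i2, Hnf4a, Ephx1 and Ephx2 always. Other genes named for their levels were chosen after their values were seen. Alternatives covered the background correction, the scaling, the authors' values, the filter, the choice of probe, blocks for scan date, slide, averaged sample and replicate number, and leaving out arrays or samples.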

Additional observations from a re-analysis of the deposited data

How the results depend on the processing

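The count of P450 genes called in adenoma against epithelium was 23 and lay between 18 and 32 under all alternatives run, and 17 of the 23 genes kept their direction and call under each; Cyp1b1, Cyp2c44, Cyp2j9, Cyp2r1, Cyp3a11 and Cyp4a10 lost the call under at least 1. No direction of a named gene turned. Leaving out 1 array gave 20 to 28 calls. The count of partner genes called in this contrast was 13, and was 31 with each of 15 arrays as a sample, 30 with scan date as a random block, 22 with scan date as a fixed block, 32 with slide as a block, 31 with the replicate block on 15 arrays, 8 without arrays 1 and 2 of untreated adenoma, 8 without the near-identical pair across groups and 7 with untreated adenoma as the only adenoma group; leaving out 1 array gave 10 to 16. In treated against untreated adenoma, P450 calls were 0, and were 6 with each array as a sample, 7 with scan date as a random block, 6 with it as a fixed block, 7 with slide as a block and 5 with the replicate block; leaving out 1 array gave 0 to 1. Partner gene calls in that contrast were 0, and were 6 with each array as a sample, 1 with averaged sample as a random block, 7 with scan date as a random block, 6 with it as a fixed block, 6 with slide as a block and 6 with the replicate block. Fits on 15 arrays count near-identical arrays as independent; the cause was not tested otherwise. Tumor-bearing against tumor-free epithelium gave 0 calls throughout, with no value for scan date as a fixed block. Same-numbered arrays of different groups deviated together with correlations of -0.3 to 0.52 over 21 pairs, so the replicate numbers were not taken to pair the samples. The number of samples, 2 per adenoma group, limits the precision.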
